A study of Mus musculus with 12 samples.

Results

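The genes described are 8 members of the Nodal pathway in mouse embryonic stem cells: the ligands Nodal and Gdf3, the coreceptor Tdgf1 (also called Cripto), the receptor Acvr2b, the nuclear factor Foxh1, and the inhibitors Lefty1, Lefty2 and Smad7. They were taken by name from the 55416 genes counted, and all 8 were among the 17940 genes that passed the filter on low counts. Transcripts were counted in 12 RNA sequencing libraries of the line labelled Bl/6J, in 4 groups of 3. The first group holds C48S cells on day 2 of retinoic acid (RA, 1.5 mg/L in medium without leukaemia inhibitory factor), and the second holds wild-type (WT) cells under the same RA treatment. The third holds undifferentiated C48S cells, and the fourth undifferentiated WT cells, both kept with a MEK inhibitor (PD, 1 µM), a GSK3 inhibitor (CHIR, 3 µM) and ascorbic acid. C48S names a cysteine-to-serine change in Oct4, the transcription factor encoded by Pou5f1 that sustains pluripotency. All C48S libraries come from 1 clone (number 46), so the mutation and the other properties of that clone cannot be told apart. Continued use of the inhibitors during RA is not stated, so RA, loss of the cytokine and the change of medium cannot be told apart either. One label field gives RA libraries various days, and the titles and protocol, which both place them at day 2, were followed.

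Nodal is a secreted ligand of the TGF-beta superfamily that acts in the early embryo to keep the epiblast from differentiating and later to set up mesendoderm and the left side of the body. It binds type II receptors such as ACVR2B and type I receptors of the activin class with the help of the coreceptor TDGF1, and the signal is carried to the nucleus by SMAD2 or SMAD3 with SMAD4. There FOXH1 directs SMAD complexes to target genes that include Nodal itself and both Lefty genes, whose products block Nodal outside the cell. Embryonic stem cells transcribe much of this circuit while undifferentiated. On GRCm39, the build of the files, the genes of the ligands span chr10:61253751-61261117 (+) for Nodal and chr6:122582362-122587046 (-) for Gdf3. Tdgf1 spans chr9:110768671-110775226 (-), Acvr2b chr9:119231184-119264061 (+), Foxh1 chr15:76552425-76554148 (-) and Smad7 chr18:75500600-75529006 (+). Counts cover the exons of each gene.

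Total counts ran from 8678088 to 13597098 per library. Libraries of 1 group resembled each other (Pearson's r of log2 level across genes 0.9879 to 0.991), but undifferentiated C48S replicate 3 differed from replicates 1 and 2 more than any other pair within a group did. Pou5f1 averaged 68.3 ± 3.20 CPM (counts per 1000000 after TMM scaling) in C48S RA libraries and 23.0 ± 1.07 CPM in WT RA libraries, and 556.6 ± 83.4 and 585.0 ± 5.10 CPM in undifferentiated C48S and WT libraries (SD, n = 3 each), a level that does not check the base change itself. All 10 markers of undifferentiated embryonic stem cells were at 1 CPM or more in every group. Their summed level was 912 to 957.8 CPM in C48S RA, 457.6 to 479.5 CPM in WT RA, 5781 to 5922 CPM in undifferentiated C48S and 5858 to 6012 CPM in undifferentiated WT libraries. Fibroblast markers were also present, 10 or 11 of 12 at 1 CPM or more in each group, with sums of 449.7 to 462.2, 420.8 to 440.3, 598.3 to 766.6 and 546.8 to 571.7 CPM in the same order of groups. Single fibroblast markers ran against these sums after RA, where 1 was higher and 6 were lower of 11 tested in C48S against WT cells (median log2 difference -0.58). Of all genes tested 28.8% were higher and 25.7% lower in this comparison.

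After RA every one of the 8 genes was higher in C48S than in WT cells, and before RA the lines differed in both directions, with a smaller median. RA lowered 7 of the 8 genes in WT cells, and in C48S cells it lowered 6 and raised 1, Lefty1. The following counts rest on edgeR's quasi-likelihood test over all 12 libraries, with Benjamini-Hochberg adjusted p under 0.05 as the threshold. The 8 genes were chosen with earlier results of these data known. Shares over all genes are therefore given beside the counts and do not test them. In C48S against WT cells after RA 8 of 8 were higher, where 28.8% of all genes tested were called higher, 25.7% lower and 54.5% in either direction. Their groups overlapped for none of the 8, and 62.6% of all genes had no overlap of these groups. The median log2 fold change of the 8 genes was 1.57, against 0.023 over all genes. In C48S against WT undifferentiated cells 5 were higher, 1 was lower and 2 did not pass, where 27.5% of all genes were called higher, 28.1% lower and 55.6% in either direction. Groups did not overlap for 6 of the 8, against 58.3% of all genes. The median over the 8 genes was then 0.26, against 0.0014 over all genes.

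RA in WT cells gave 7 lower and 1 that did not pass, where 37.4% of all genes were called lower, 40.9% higher and 78.3% in either direction. Groups did not overlap for 8 of the 8, against 80.9% of all genes, and the median log2 change was -1.48 over the 8 genes and 0.055 over all. RA in C48S cells gave 6 lower, 1 higher and 1 that did not pass, where 34.6% of all genes were called lower, 39.0% higher and 73.6% in either direction. Groups did not overlap for 7 of the 8, against 73.8% of all genes, and the median was -0.39 over the 8 genes and 0.049 over all. The difference between the lines in their RA change, tested as an interaction, was positive for 6 genes and passed for no gene in the negative direction, where 22.2% of all genes were called positive, 17.2% negative and 39.4% in either direction. These comparisons share libraries with one another, so their counts do not add to each other. Separate cultures are not named for the replicates in the labels, so p-values reflect scatter among these libraries, which could be technical only.

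**Figure D1:**
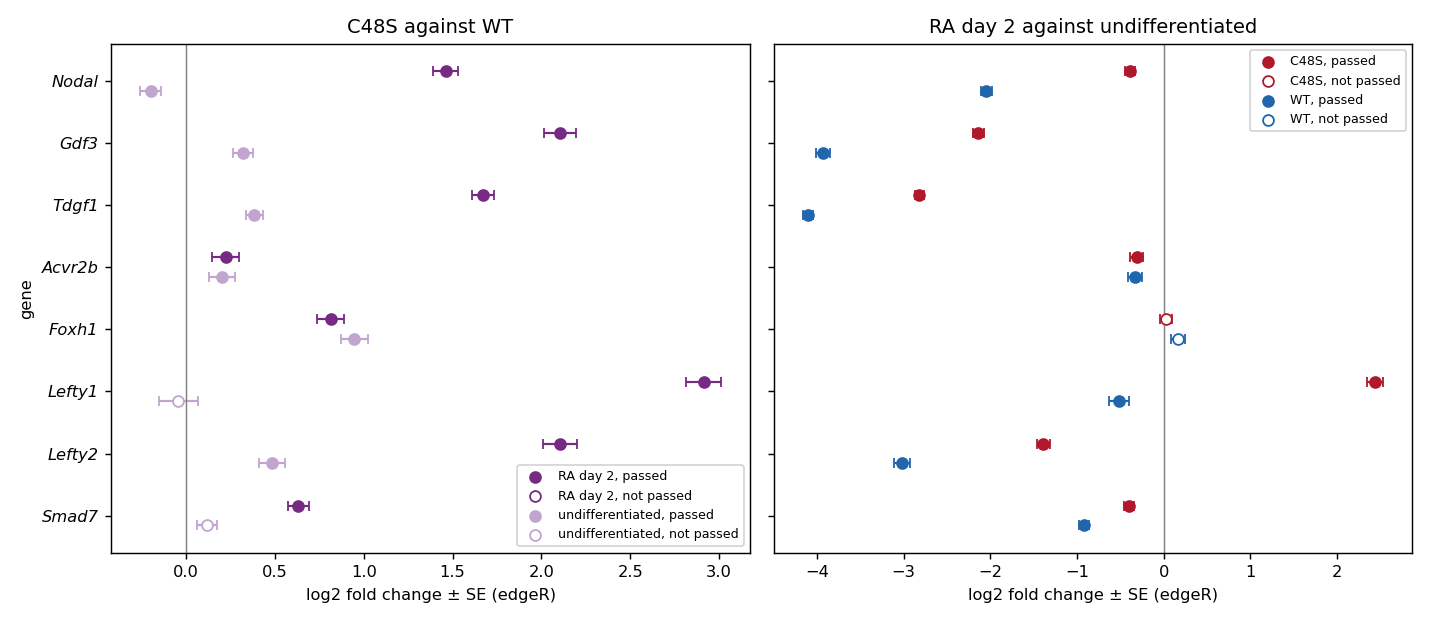
Log2 fold change ± SE from edgeR for each of the 8 genes, C48S against WT on the left and RA day 2 against undifferentiated on the right; filled points passed the test at an adjusted p under 0.05 and open points did not. All 8 points for C48S against WT after RA lie right of 0, and Lefty1 in C48S cells is the gene that RA moved to the right.

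Nodal, the ligand of the circuit, kept much of its transcript level through RA in C48S cells and lost most of it in WT cells. After RA it was counted at 87.7, 85.4 and 77.5 CPM in C48S libraries, against 29.7, 29.4 and 31.9 CPM in WT libraries. Undifferentiated, it was counted at 106.2, 103.99 and 117.0 CPM in C48S libraries, against 129.1, 123.2 and 123.6 CPM in WT libraries. No group overlapped another, and the lines were in opposite order in the 2 states, C48S above WT after RA and below it before. The log2 difference of C48S from WT was 1.46 ± 0.068 after RA (SE; edgeR, adjusted p = 2.57e-19) and -0.20 ± 0.0588 undifferentiated (adjusted p = 0.00405), or -0.25 without undifferentiated C48S replicate 3. The RA level was 76.6% of the undifferentiated level in C48S cells, a log2 change of -0.38 ± 0.0597 (adjusted p = 6.49e-07). In WT cells it was 24.2%, a change of -2.05 ± 0.067 (adjusted p = 1.27e-24). The changes differed between the lines by 1.66 ± 0.0901 (adjusted p = 5.13e-17). In bulk libraries of this kind, fewer cells that transcribe a gene and less transcript per cell cannot be told apart.

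**Figure D2:**
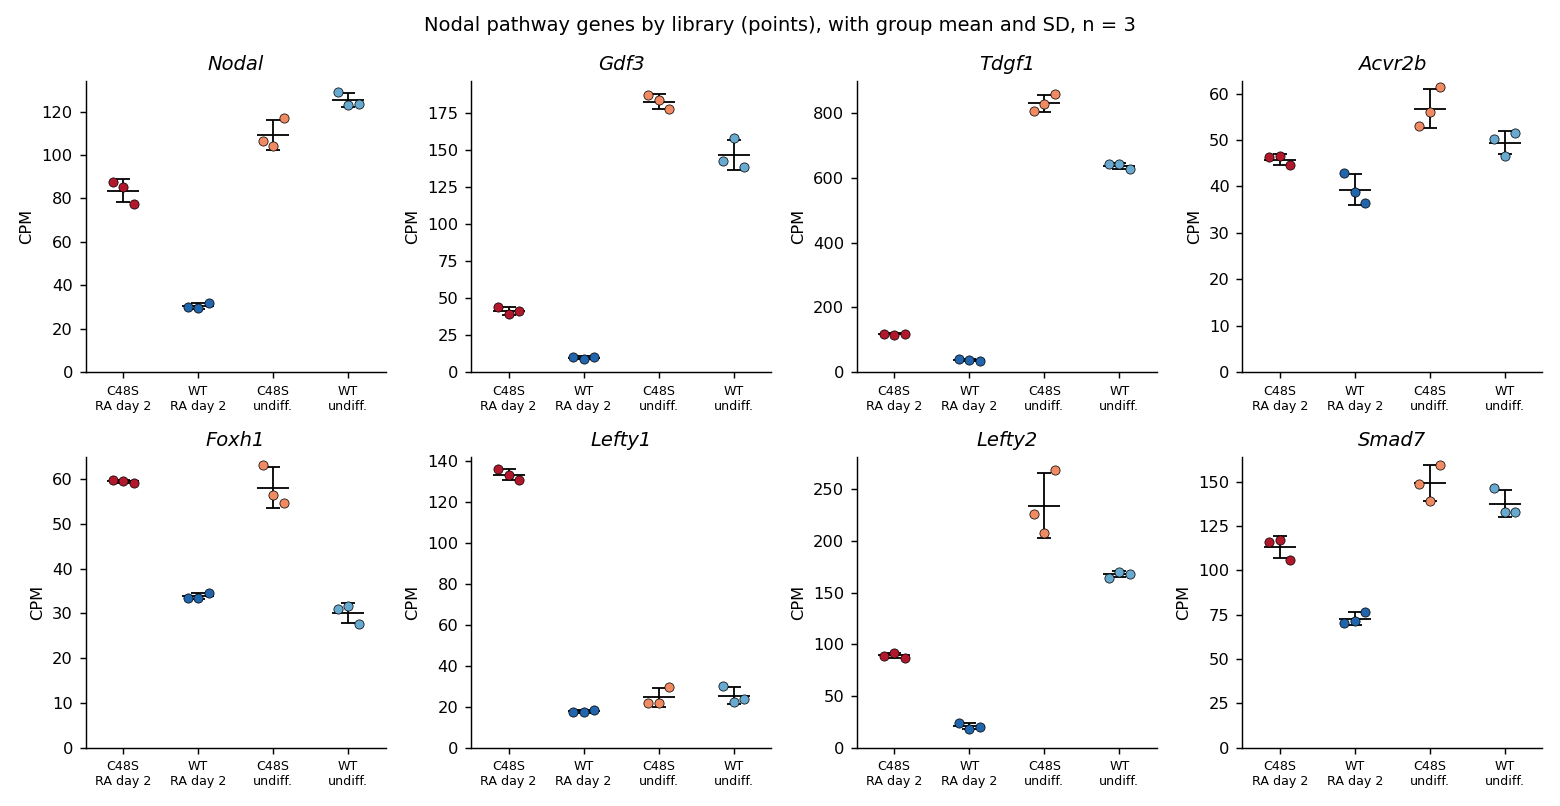
CPM of each of the 8 genes in each library (points), with the group mean and SD (bars, n = 3), in C48S RA, WT RA, undifferentiated C48S and undifferentiated WT cells from left to right. For Nodal the C48S RA libraries sit between 77.5 and 87.7 CPM, above all WT RA libraries, and for Lefty1 the C48S RA libraries stand alone above 130 CPM.

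Gdf3, a ligand related to Nodal that shares its receptors, fell in both lines under RA, and further in WT. The RA libraries held 43.9, 38.8 and 41.3 CPM in C48S cells, against 10.3, 8.66 and 10.1 CPM in WT cells. The undifferentiated libraries held 186.9, 183.3 and 177.2 CPM in C48S cells, against 142.5, 157.7 and 138.6 CPM in WT cells. The 4 groups did not overlap, and C48S was above WT in both states. The line difference was 2.11 ± 0.0883 on the log2 scale after RA (edgeR, adjusted p = 1.29e-20) and 0.32 ± 0.0567 before it (adjusted p = 1.13e-05; 0.34 without undifferentiated C48S replicate 3). RA left 22.7% of the level in C48S cells and 6.6% in WT cells, changes of -2.14 ± 0.0626 and -3.93 ± 0.0798, which differed by 1.79 ± 0.107 (adjusted p = 6.85e-16). Gdf3 lies on chromosome 6, where the 796 other genes of at least 1 mean CPM had a median C48S-to-WT difference of 0.60 after RA and 0.58 undifferentiated. The part of that shift in the Gdf3 line differences was not tested, and the median of the same genes for the difference in RA change was 0.032. The median line difference on the chromosomes of the other 7 genes stayed within 0.1 of 0 in both states.

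Tdgf1 encodes the membrane-anchored coreceptor without which Nodal signals poorly, and it had the highest level of the 8 genes in undifferentiated cells on both the CPM and the per-length scale. It was counted at 118.9, 115.9 and 118.9 CPM in C48S RA libraries, against 39.6, 38.7 and 32.8 CPM in WT RA libraries. Before RA the counts were 806.4, 828.9 and 858.1 CPM in C48S libraries, against 643.1, 643.0 and 626.3 CPM in WT libraries. The groups did not overlap, with both RA groups far below both undifferentiated groups and C48S above WT each time. C48S exceeded WT by 1.67 ± 0.0594 on the log2 scale after RA (edgeR, adjusted p = 1.21e-22) and by 0.38 ± 0.0476 before it (adjusted p = 1.57e-08; 0.36 without undifferentiated C48S replicate 3). RA left 14.2% of the level in C48S cells, a change of -2.82 ± 0.0523, and 5.81% in WT cells, a change of -4.11 ± 0.0589. Among the 17940 genes these were the 164th lowest change in C48S cells and the 177th lowest in WT cells. The line difference in RA change was 1.29 ± 0.0762 (adjusted p = 5.64e-16). The pseudogene Tdgf1-ps1 shares 236 of the 2665 stretches of 50 bases in the annotated Tdgf1 transcripts, so read pairs there could have been lost or moved between them.

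The promoters of Nodal and Tdgf1 are shown because these genes carry the ligand and coreceptor results and because FOXH1 and SMAD complexes are the circuit's own nuclear readers. Each is 250 bases before to 50 bases after the gene's start, from RefSeq on GRCm38.p6 and on the strand of the gene: chr10:61417722-61418021 (+) for Nodal and chr9:110946109-110946408 (-) for Tdgf1. Capitals mark matches to the FOXH1 core AATNNACA or the SMAD box CAGAC, searched on both strands.
Nodal: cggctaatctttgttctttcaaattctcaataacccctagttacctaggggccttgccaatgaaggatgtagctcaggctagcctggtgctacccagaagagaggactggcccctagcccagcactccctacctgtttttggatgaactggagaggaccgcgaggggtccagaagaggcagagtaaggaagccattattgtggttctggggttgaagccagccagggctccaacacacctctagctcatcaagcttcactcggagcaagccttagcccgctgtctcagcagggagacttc
Tdgf1: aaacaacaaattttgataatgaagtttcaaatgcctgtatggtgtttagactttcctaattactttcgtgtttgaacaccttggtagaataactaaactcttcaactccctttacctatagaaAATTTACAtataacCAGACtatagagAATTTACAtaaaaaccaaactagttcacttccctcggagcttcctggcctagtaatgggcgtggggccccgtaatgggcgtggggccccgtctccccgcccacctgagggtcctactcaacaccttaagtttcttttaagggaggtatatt

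The Tdgf1 window holds 2 FOXH1 cores with 1 SMAD box between them, and these matches do not overlap. Among 32851 mouse promoters of this length in the same table, 12.2% hold at least 1 FOXH1 core and 49.6% at least 1 SMAD box. Nodal has neither in its window. The Acvr2b promoter, the only other one of the 8 in the table, holds 1 SMAD box and no FOXH1 core. The octamer ATGCAAAT that Oct4 binds, the SOX core CATTGT and the RA receptor half-site AGGTCA were found in none of these 3 windows, and they occur in 1.74%, 12.6% and 16.3% of all promoters. The matches are descriptions of letters and not of binding.

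Acvr2b, a type II receptor that Nodal shares with activins, varied least among the 8 genes. After RA it was counted at 46.3, 46.5 and 44.5 CPM in C48S libraries, against 42.8, 38.8 and 36.3 CPM in WT libraries. Undifferentiated libraries held 52.9, 55.9 and 61.4 CPM in C48S cells, against 50.2, 46.6 and 51.4 CPM in WT cells. The groups were close to each other, though neighbours in the order of levels did not overlap. C48S exceeded WT by 0.22 ± 0.0768 on the log2 scale after RA (edgeR, adjusted p = 0.0146) and by 0.20 ± 0.075 before it (adjusted p = 0.0227). Both calls were lost with DESeq2 (0.18 in each state, adjusted p = 0.0851 after RA and 0.0677 before), the call after RA without WT RA replicate 3 (0.15, adjusted p = 0.16) and the call before RA without undifferentiated C48S replicate 3 (0.15, adjusted p = 0.0843). RA lowered Acvr2b to 80.7% in C48S cells (log2 change -0.31 ± 0.0743, adjusted p = 0.000397) and to 79.5% in WT cells (-0.33 ± 0.0775, adjusted p = 0.000265). The changes differed by 0.021 ± 0.107 (adjusted p = 0.903), a value whose sign turned under another scaling (-0.0036).

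Foxh1, which encodes the DNA-binding partner of SMAD2 and SMAD3 in Nodal signalling, differed between the lines in both states and passed no test of an RA change. The RA libraries held 59.9, 59.6 and 59.1 CPM in C48S cells, against 33.5, 33.5 and 34.7 CPM in WT cells. The undifferentiated libraries held 63.2, 56.4 and 54.7 CPM in C48S cells, against 30.9, 31.7 and 27.7 CPM in WT cells. Each C48S library was above each WT library, while the C48S groups overlapped each other across RA. C48S exceeded WT by 0.81 ± 0.0746 on the log2 scale after RA (edgeR, adjusted p = 1.9e-11) and by 0.95 ± 0.0769 before it (adjusted p = 7.28e-13; 0.99 without undifferentiated C48S replicate 3). RA changed the fitted level by 0.032 ± 0.0707 in C48S cells (adjusted p = 0.694) and by 0.17 ± 0.081 in WT cells (adjusted p = 0.0594). The WT value passed under 8 of 19 other settings, among them RLE scaling (0.19) and leaving out undifferentiated C48S replicate 3 (0.18). The line difference in RA change was -0.13 ± 0.107 (adjusted p = 0.343).

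Lefty1 and Lefty2 encode secreted antagonists of Nodal that its own signal induces, and in the embryo Lefty1 is known for the midline and Lefty2 for the left lateral plate. They lie close together on chromosome 1 (chr1:180762587-180765965 and chr1:180720673-180726668 on GRCm39, both on the plus strand). Their coding sequences are both 1104 bases long and match at 1014 positions (91.8%) in GENCODE M21. Of the stretches of 50 bases in the annotated transcripts, 306 of 1707 in Lefty1 and 307 of 2560 in Lefty2 occur in another gene, 306 of each in the other Lefty gene. Reads from those stretches could have been split or dropped, so the levels of each gene are uncertain to that extent. The assignment rule was the same in every library, but its effect on differences between groups was not tested.

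Lefty1 was the only gene of the 8 called higher under RA, and that call was in C48S cells; in WT cells it fell. After RA it was counted at 135.9, 133.0 and 130.4 CPM in C48S libraries, against 17.5, 17.2 and 18.3 CPM in WT libraries. Undifferentiated libraries held 22.0, 21.9 and 29.7 CPM in C48S cells, against 30.1, 22.2 and 23.8 CPM in WT cells. The C48S RA libraries stood apart from all others, the undifferentiated groups of both lines overlapped, and the WT RA libraries were the lowest. C48S exceeded WT by 2.91 ± 0.0972 on the log2 scale after RA (edgeR, adjusted p = 2.82e-20), a ratio of mean CPM of 7.53. That was the 84th largest rise of the 17940 genes, and 1 of the 938 other genes on chromosome 1 lay above it. Undifferentiated, the fitted difference was -0.044 ± 0.108 (adjusted p = 0.751), and -0.19 without undifferentiated C48S replicate 3 (adjusted p = 0.0766). RA changed Lefty1 by 2.44 ± 0.0932 in C48S cells (adjusted p = 1.85e-19) and by -0.51 ± 0.113 in WT cells (adjusted p = 0.000169). The line difference in RA change was 2.96 ± 0.146 (adjusted p = 7.82e-16), the largest of the 8 genes.

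Lefty2 fell in both lines under RA. The RA libraries held 88.7, 92.0 and 87.2 CPM in C48S cells, against 23.9, 18.4 and 20.2 CPM in WT cells. The undifferentiated libraries held 226.1, 207.5 and 269.0 CPM in C48S cells, against 164.5, 170.1 and 168.5 CPM in WT cells. No groups overlapped, and undifferentiated C48S replicate 3 was the highest library. C48S exceeded WT by 2.10 ± 0.0941 on the log2 scale after RA (edgeR, adjusted p = 1.84e-14) and by 0.48 ± 0.0726 before it (adjusted p = 6.67e-06; 0.38 without that replicate). RA left 38.1% of the level in C48S cells (-1.39 ± 0.0752) and 12.4% in WT cells (-3.01 ± 0.0917), and these changes differed by 1.62 ± 0.12 (adjusted p = 2.72e-10).

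The balance between the Lefty genes shifted towards Lefty1 with RA in both lines. Lefty2 fell in each line, while Lefty1 rose in C48S cells and fell less than Lefty2 in WT cells. Lefty1 made up 60.5, 59.1 and 59.9% of the summed Lefty1 and Lefty2 counts in C48S RA libraries, against 42.3, 48.3 and 47.5% in WT RA libraries. In undifferentiated libraries it made up 8.86, 9.57 and 9.94% in C48S cells, against 15.5, 11.5 and 12.4% in WT cells. No groups overlapped, and C48S held the highest share after RA and the lowest before. Between the lines the share differed by 13.84 percentage points after RA and by -3.66 points undifferentiated. Under RA it rose by 50.39 points in C48S cells and by 32.9 points in WT cells. Each of these 4 differences had an exact two-sided permutation p of 0.1, also after Benjamini-Hochberg adjustment over the 4, which is the smallest that 3 against 3 libraries can give, so none can pass.

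Per length, the sum of both Lefty genes was 109.9 ± 2.03 RPKM (CPM divided by exon length in kilobases) in C48S RA cells and 18.04 ± 1.13 RPKM in WT RA cells (SD, n = 3 each). Undifferentiated, it was 103.7 ± 14.5 RPKM in C48S and 78.7 ± 1.29 RPKM in WT cells. In C48S cells the RA libraries, at 107.6 to 111.3 RPKM, lay above undifferentiated replicates 1 and 2 (99.1 and 91.9 RPKM) and below replicate 3 (119.9 RPKM), the library that stood apart. In WT cells the RA libraries were well below the undifferentiated ones. Relative to the Nodal level on the same scale the sum was 2.76 ± 0.131 in C48S RA, 1.247 ± 0.0896 in WT RA, 1.98 ± 0.153 in undifferentiated C48S and 1.31 ± 0.0116 in undifferentiated WT cells. The ratio was higher in every C48S library than in any WT library of its state.

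**Figure D3:**
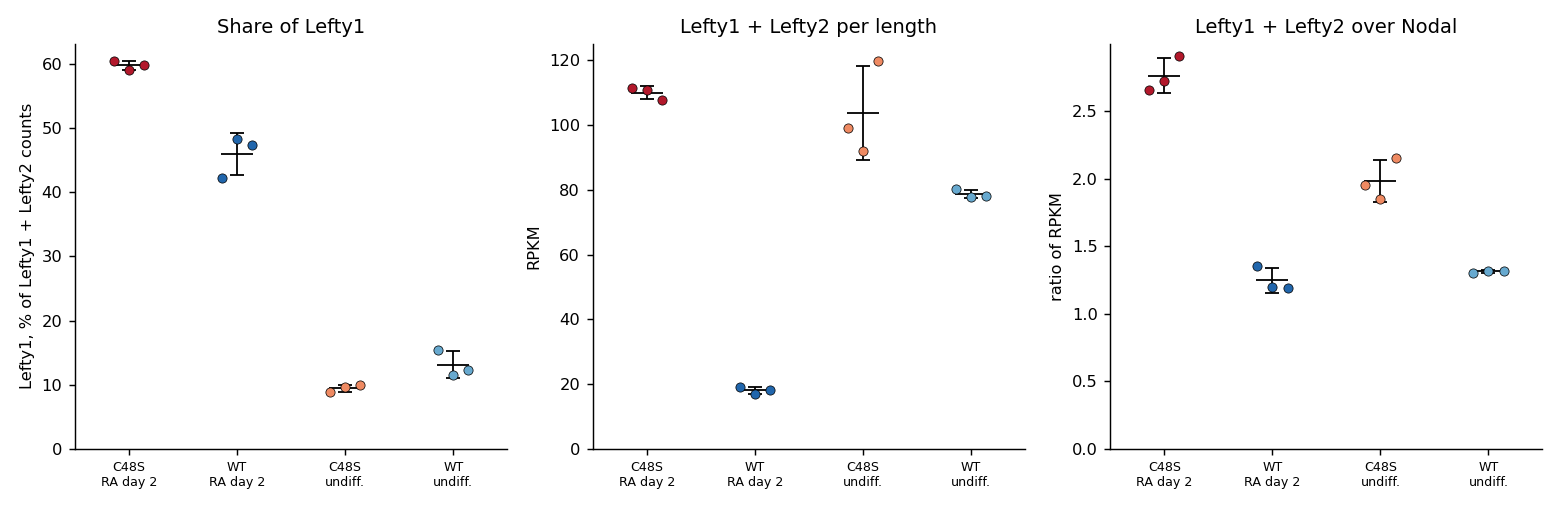
Lefty1 as a percent of Lefty1 plus Lefty2 counts (left), the sum of both in RPKM (middle) and that sum divided by Nodal RPKM (right), by library (points) with group mean and SD (bars, n = 3), C48S RA, WT RA, undifferentiated C48S and undifferentiated WT from left to right. The share of Lefty1 is 59.1 to 60.5% in C48S RA libraries and 42.3 to 48.3% in WT RA libraries, and the summed level of the C48S RA libraries lies above undifferentiated C48S replicates 1 and 2 and below replicate 3.

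Smad7, an inhibitory SMAD that blocks the activated type I receptor inside the cell and is induced by TGF-beta superfamily signals, was higher in C48S than in WT cells after RA and fell under RA in both lines. After RA it was counted at 115.7, 117.1 and 105.7 CPM in C48S libraries, against 70.1, 71.6 and 76.8 CPM in WT libraries. Undifferentiated libraries held 148.8, 139.0 and 159.5 CPM in C48S cells, against 146.4, 133.0 and 133.1 CPM in WT cells. The lines overlapped before RA and were apart after it, with both RA groups below both undifferentiated groups. C48S exceeded WT by 0.63 ± 0.0611 on the log2 scale after RA (edgeR, adjusted p = 6.66e-11), and the difference before it was 0.12 ± 0.058 (adjusted p = 0.0834). The difference before RA passed without undifferentiated WT replicate 1 (0.16) or undifferentiated C48S replicate 2 (0.17) and was 0.075 without undifferentiated C48S replicate 3. RA left 75.7% of the level in C48S cells (-0.40 ± 0.0581, adjusted p = 1.65e-07) and 52.9% in WT cells (-0.92 ± 0.0611, adjusted p = 1.08e-15), and these changes differed by 0.51 ± 0.0842 (adjusted p = 5.84e-06).

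Across the 8 genes the order of groups fell into few patterns. Gdf3, Tdgf1, Acvr2b and Lefty2 ran from undifferentiated C48S through undifferentiated WT and C48S RA down to WT RA, with no overlap between neighbours, and Smad7 ran the same way with overlap between its highest groups. Nodal differed by having undifferentiated WT highest. Foxh1 was ordered by line, with both C48S groups above both WT groups. Lefty1 had C48S RA highest, then the overlapping undifferentiated groups, then WT RA. WT RA was thus the lowest group for every one of the 8 genes except Foxh1. The share of all genes tested with any of these orders was not counted, so the orders cannot be called particular to these genes.

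Without undifferentiated C48S replicate 3, the library that stood apart, the RA changes in C48S cells were -0.33 for Nodal, -2.16 for Gdf3, -2.79 for Tdgf1, -0.24 for Acvr2b, 2.60 for Lefty1, -1.28 for Lefty2 and -0.35 for Smad7. All 7 passed the test with and without that library, whereas Foxh1, at -0.0074, did not pass and changed sign. The difference in RA change between the lines was then 1.71 for Nodal, 1.76 for Gdf3, 1.31 for Tdgf1, 3.10 for Lefty1, 1.73 for Lefty2 and 0.55 for Smad7, all past the threshold as before.

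On the per-length scale, which allows genes to be compared, Tdgf1 led the undifferentiated cells with 317.0 RPKM in C48S and 243.1 RPKM in WT. Lefty2 followed at 89.7 RPKM in C48S and 64.2 RPKM in WT, and Gdf3 at 75.3 and 60.4 RPKM in these lines. After RA in C48S cells the highest level was that of Lefty1, at 75.7 RPKM, followed by Tdgf1 at 45.0, Foxh1 at 43.6 and Nodal at 39.9 RPKM. After RA in WT cells Foxh1 led at 24.8 RPKM, followed by Smad7 at 16.1, Nodal at 14.5 and Tdgf1 at 14.1 RPKM. Gdf3 was the lowest in WT RA cells, at 3.99 RPKM, whereas Acvr2b was the lowest in C48S RA cells, at 11.7 RPKM.

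After RA most markers of undifferentiated embryonic stem cells were, like these genes, higher in C48S than in WT cells. Before RA 3 of the 10 were higher, 5 were lower and 2 did not pass, with a median log2 difference of -0.15. Over all genes tested 27.5% were then called higher and 28.1% lower. Under RA all 10 fell in both lines, where 34.6% of all genes were called lower in C48S cells and 37.4% in WT cells. In C48S against WT cells after RA 9 were higher and 1 lower (edgeR, adjusted p under 0.05), with a median log2 difference of 1.79. Over all genes 28.8% were called higher, 25.7% lower and 54.5% in either direction in that comparison. Pou5f1 itself, 1 of the 10, was higher in C48S RA than in WT RA cells by 1.57, close to the median of the 8 Nodal pathway genes. Mesendoderm markers, of which 4 of 6 were at 1 CPM or more in both RA groups, summed to 35.9 to 46.4 CPM in C48S RA and 19.8 to 24.3 CPM in WT RA libraries. Most of that difference was Eomes, which averaged 21.7 CPM in C48S RA and 5.96 CPM in WT RA libraries. Of 5 mesendoderm markers tested 3 were higher, 0 were lower and 2 did not pass, with a median log2 difference of 0.34. Trophoblast markers summed to 311.7 to 334.5 CPM in C48S RA and 554.4 to 570.3 CPM in WT RA libraries, and endoderm markers to 135.4 to 144.8 and 135.5 to 149.4 CPM in these groups. Of 6 trophoblast markers tested, however, 2 were higher and 2 lower in C48S RA than in WT RA cells, with a median log2 difference of 0.081, so single markers did not all follow the sum. Of the endoderm markers Ttr had no count in C48S RA libraries, and Afp and Apoa1 were under 1 CPM in both RA groups. The part of these marker levels in the results of the 8 genes was not tested.

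The genes whose profile over the 12 libraries came closest to each member were found by the root mean square (RMS) difference of centred log2 CPM among 16087 genes. For Tdgf1 they were Mycn, a MYC family transcription factor (0.23), Pou5f1 (0.271) and Gpx2 (0.277). For Nodal they were Carmil3 (0.146), Amt (0.151) and Zbtb32 (0.155), and for Gdf3 they were Mylpf (0.169), Mpzl2 (0.19) and Epha4 (0.222). Lefty2 came closest to Epas1, which encodes the hypoxia-inducible factor HIF-2 alpha (0.142), Zfp57, an imprint-guarding zinc finger factor (0.152), and Ildr1 (0.187).

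Lefty1 had no gene as close: its nearest were Tcf15, a basic helix-loop-helix factor (0.35), Rapgef3 (0.388) and Guca1b (0.422). Tcf15 averaged 39.2 CPM in C48S RA, 3.56 CPM in WT RA, 5.54 CPM in undifferentiated C48S and 4.39 CPM in undifferentiated WT libraries, so it too was high in C48S RA cells alone among the 4 groups. Acvr2b was near Sf3b6, Cbx6 and Dgcr8 (0.0546 to 0.0684), and Smad7 near Sfpq, Gatad2a and Morf4l2 (0.0776 to 0.0811), profiles of small range. Foxh1 was near Gipc1, Itga5 and Tubgcp3 (0.0845 to 0.1). Gipc1 and Tubgcp3 lie on chromosome 8, where the 857 genes of at least 1 mean CPM had a median C48S-to-WT difference of 0.54 after RA and 0.51 undifferentiated. Foxh1 is on chromosome 15, where the median of the 605 other genes was 0.069 after RA and 0.071 undifferentiated.

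The remaining genes of the pathway were counted in 6 lists, with genes that serve in more than 1 role counted in each. Over all genes tested, 28.8% were higher, 25.7% lower and 54.5% called in either direction between C48S and WT cells after RA, with a median log2 difference of 0.023. After RA, 8 of 13 tested targets known from other Nodal or activin studies were higher in C48S than in WT cells, 3 were lower and 2 did not pass, with a median log2 difference of 0.71. Those lower were Nog (-2.66), Foxa2 (-0.72) and Tagln2 (-0.37). Nog averaged 0.499 CPM in C48S RA and 3.21 CPM in WT RA libraries, both low levels. The targets described next had the smallest adjusted p of the list. Eomes, a T-box factor of mesendoderm, averaged 21.7 ± 2.78 CPM in C48S RA and 5.96 ± 0.509 CPM in WT RA libraries, a difference of 1.86 ± 0.151 (edgeR, adjusted p = 1.25e-12). Pmepa1, a feedback inhibitor of SMAD signalling, averaged 32.9 ± 2.04 CPM in C48S RA and 9.20 ± 0.244 CPM in WT RA libraries (1.84 ± 0.0966, adjusted p = 8.12e-18). Skil, which encodes the SMAD corepressor SnoN, averaged 317.0 ± 2.67 CPM in C48S RA and 183.3 ± 4.02 CPM in WT RA libraries (0.79 ± 0.0454). Cyp26a1, the enzyme that degrades RA and a direct RA target as well, averaged 536.3 ± 8.92 CPM in C48S RA and 245.7 ± 10.6 CPM in WT RA libraries (1.13 ± 0.0497, adjusted p = 5.23e-20).

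Calls in the ligand, receptor and SMAD lists after RA came at about the 54.5% found over all genes. Among the other ligands 4 of 8 tested were higher in C48S RA than in WT RA cells and none passed as lower: Gdf15 (1.98), Tgfb1 (1.50), Inhba (1.10), a subunit of activin, and Gdf11 (0.51). Of the 8 receptors and coreceptors 4 were higher, Eng (0.41), Nomo1 (0.38), the Nodal type I receptor Acvr1b (0.37) and the type II receptor Acvr2a (0.30), and 1 was lower, the TGF-beta receptor Tgfbr1 (-0.72). Of the 4 convertases, from a family that cleaves protein precursors such as that of Nodal, 3 were higher: Pcsk6 (0.98), Pcsk7 (0.92) and Furin (0.40). Among 15 SMADs and nuclear partners 6 were higher and 2 lower. Ski (0.47) and Tgif1 (0.56), both repressors of SMAD complexes, were among those higher, and Smad3 (-0.50) and Ep300 (-0.33) were those lower. Among 11 inhibitors 5 were higher and 2 lower, with Smurf1 (0.37) higher and Smurf2 (-0.55) and Tmem53 (-0.96) lower.

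In undifferentiated cells the same lists held calls in both directions between C48S and WT cells, as did all genes tested (27.5% higher, 28.1% lower and 55.6% in either direction). Targets gave 6 higher and 1 lower of 13 (Tagln2 1.245, Pmepa1 1.48 and Skil 0.54 were among those higher), ligands 2 higher and 1 lower of 8 (Tgfb1 1.75, Gdf15 1.42 and Inhbb -1.26). Receptors gave 4 higher and 3 lower of 8, with Acvr1b at 1.00 and Tgfbr3 at -1.30, and inhibitors 4 higher and 4 lower of 11, with Fst, which sequesters activin, at 1.40 and Ppm1a at -0.42. Convertases gave 1 higher, Pcsk7 (0.67), and 2 lower, Furin (-0.83) and Pcsk6 (-0.14). SMADs and partners gave 5 higher and 7 lower of 15, with Trim33 at -0.94 and Tgif2 at -0.64.

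**Figure D4:**
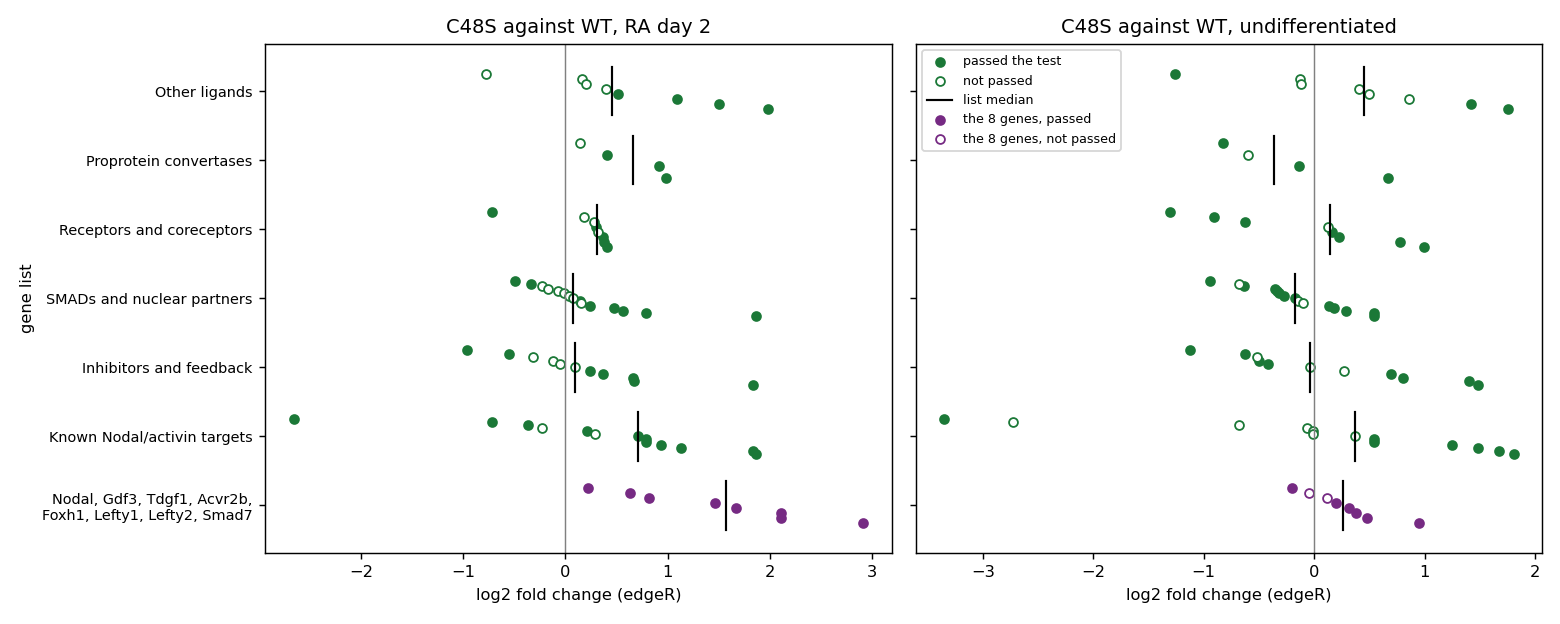
Log2 fold change of C48S against WT after RA (left) and undifferentiated (right) for each tested gene of 6 pathway lists (green) and for the 8 genes described here (purple), filled where the test passed, with the list median as a black bar. After RA the 8 genes have a median of 1.57 and all lie right of 0. The 4 convertases, with a median of 0.66, also all lie right of 0, and each of the remaining lists holds genes on both sides of 0.

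Under RA itself the targets Cyp26a1 and Lhx1 rose and Pmepa1 fell in both lines. Of the 13 targets 8 were higher and 3 lower in C48S cells, and 9 were higher and 3 lower in WT cells. Over all genes 39.0% were called higher, 34.6% lower and 73.6% in either direction in C48S cells. In WT cells these shares were 40.9%, 37.4% and 78.3%. Pcsk6 fell by 1.59 ± 0.0519 on the log2 scale in C48S cells and by 2.71 ± 0.0568 in WT cells, a difference of 1.12 ± 0.0769 (edgeR, adjusted p = 2.99e-14). Furin rose by 0.48 ± 0.0587 in C48S cells and fell by 0.75 ± 0.058 in WT cells, a difference of 1.23 ± 0.0825 (adjusted p = 1.56e-14). The difference in RA change passed as positive for 22.2% and as negative for 17.2% of all genes tested. It passed as positive for 10 of 15 SMADs and partners and as negative for none, with Trim33 (0.97) and Gtf2ird1 (0.49) among them. A positive value need not mean a higher level in C48S RA cells. Trim33 averaged 129.0 CPM in C48S RA and 126.1 CPM in WT RA libraries, a difference that did not pass. Undifferentiated, Trim33 averaged 119.6 ± 17.6 CPM in C48S and 229.8 ± 7.71 CPM in WT libraries. The list was not examined without undifferentiated C48S replicate 3. For targets the difference in RA change was positive for 4 and negative for 4 of 13: T, the mesoderm factor brachyury, at 4.14 ± 0.463 and Eomes at 1.32 were among the positive ones, and Tagln2 (-1.61) among the negative. T averaged 2.53 ± 0.0908 CPM in C48S RA, 1.46 ± 0.161 CPM in WT RA, 0.412 ± 0.27 CPM in undifferentiated C48S and 4.39 ± 0.327 CPM in undifferentiated WT libraries, all low levels.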

How the data were processed

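RNA was depleted of ribosomal RNA, per the labels' protocols. The deposited values are raw counts per gene, 1 file per library, made by the authors with featureCounts 1.6.3 on read pairs with strand option 2, assigned to the feature of largest overlap in Ensembl release 104 (GRCm39), per the file headers. The submitters' processing notes also name STAR 2.7.9a and DESeq2. Symbols were matched by identifier for 52083 of 55416 genes (94.0%). Libraries were grouped by their titles.

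The quasi-likelihood test was that of edgeR 4.0.16, run in R 4.3.3 (genes kept by filterByExpr at a minimum count of 10, TMM scaling, robust quasi-likelihood fit of 4 group means over all 12 libraries, 8 residual degrees of freedom), with Benjamini-Hochberg adjustment over 17940 genes and a threshold of 0.05. CPM use TMM-scaled totals and RPKM also the exon length in the files. Profile distances used log2 CPM with a prior count of 2. Totals of 8678088 to 13597098 counts measure these genes closely. Alternatives were RLE scaling, DESeq2 1.42.0, no filter or 1 CPM in 3 libraries, the compared groups alone, the replicate block, leaving out chromosomes 6, 8, 11 and Y, and leaving out each library. The procedure was also run on simulated counts in which far fewer genes differed between the lines than were called here. That run's outcome is not given, so it lends no support to the results. The 8 genes, the lists and the tests were chosen with earlier results of these data known. Named were the 8 genes, per list and comparison up to 4 genes with the smallest adjusted p (all where a list had at most 5 calls), Pou5f1, and the 3 nearest profiles of each gene. Also named were the targets, SMADs and nuclear partners called lower in C48S than in WT cells after RA. Some single items are not reported here.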

Additional observations from a re-analysis of the deposited data

Results flagged for a closer look

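For 6 of the 8 genes the RA change differed between the lines by the test of that difference (edgeR, adjusted p under 0.05), and every difference was positive, C48S minus WT. On the log2 scale it was 1.66 for Nodal, 1.787 for Gdf3, 1.288 for Tdgf1, 2.958 for Lefty1, 1.623 for Lefty2 and 0.5135 for Smad7. Lefty1 alone moved in opposite directions, up in C48S and down in WT libraries. Over all genes 39.4% had such a difference in either direction.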

How the results depend on the processing

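All 94 counts of called genes under other settings were within 1.5 times the reported count. They ran from 7615 to 10221 for C48S against WT undifferentiated (9189 to 10221 with 1 library left out), 7316 to 10737 after RA (8889 to 10737), 11480 to 15617 for RA in WT (13687 to 14743), 10713 to 13939 for RA in C48S (12706 to 13381) and 5703 to 7771 for the difference in RA change (6420 to 7771). Of 747 values of the 8 genes under other settings, 717 kept direction and side of the threshold, 8 lost and 10 gained a call, and 12 changed sign, all of differences that had not passed. Those sign changes were for Lefty1 in C48S against WT undifferentiated without WT replicate 1 (0.086) or C48S replicates 1 (0.042) or 2 (0.024), with a lowest value of -0.19 without C48S replicate 3, and for Foxh1 under RA in C48S without undifferentiated C48S replicates 2 (-0.016) or 3 (-0.0074), with a highest of 0.103 without replicate 1. For the Acvr2b difference in RA change they came with RLE scaling (-0.0036), DESeq2 (-0.0036), and without undifferentiated WT replicates 1 (-0.0048) or 3 (-0.026), undifferentiated C48S replicates 1 (-0.038) or 2 (-0.0099) or WT RA replicate 3 (-0.048), with a highest of 0.074 without undifferentiated C48S replicate 3. The 8 lost calls were all of the Acvr2b line differences, which ran from 0.15 to 0.26 undifferentiated and from 0.15 to 0.28 after RA, and the gained calls were of Smad7 between undifferentiated lines (2) and of Foxh1 under RA in WT (8). The cause was not tested. The Lefty1 share differences ran from -4.45 to -2.49 points between undifferentiated lines, 11.96 to 14.99 between RA lines, 31.74 to 34.78 for RA in WT and 50.06 to 50.77 for RA in C48S with 1 library left out. Same-numbered libraries showed no shared deviation: their deviations from the group means correlated at -0.0529 to 0.029 over 18 pairs, 0 of them above 0.1. Counting noise also lowers such correlations, so they cannot decide whether the libraries were paired by design. With the number as a replicate block, 9858, 9638, 13969, 13092 and 6938 genes were called for the 5 comparisons in the order above, and no call of the 8 genes changed. Depth limits few of these values, since the lowest was 8.66 CPM, for Gdf3 in a WT RA library.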
